A study of Homo sapiens with 10 samples.

Results

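The genomic segment described here runs from the start of the TDP1 gene, at base 89954968 of chromosome 14 (hg38), to the chromosome end, and was read as a set of DRIP peak regions. Overlapping or touching peaks of the 5 DRIP peak lists were merged, and the merged regions that start at or after that base were kept. This gave 546 of 177004 regions, 0.308% of the series, over about 16.9 Mb up to the last annotated gene end at 106879844. The segment was chosen by its peak values, since earlier results of these data showed fewer peaks in SCAN1 than in WT libraries there, so the difference between the genotypes is described without a test.

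The study used U2OS, a human osteosarcoma cell line. The DRIP libraries were SCAN1#1 replicate 1 (experiment 1), SCAN1#1 replicate 2 and SCAN1#2 replicate 2 (experiment 2), and WT replicate 1 (experiment 1) and WT replicate 2 (experiment 2). Both SCAN1 lines carry the TDP1 H493R allele that causes spinocerebellar ataxia with axonal neuropathy, while the WT cells carry no listed change. No treatment is given in the labels, which also do not say how the lines were made, whether each is 1 clone, or whether replicates are separate cultures. A different antibody lot or mixture was used in each experiment, SCAN1#2 was run only in experiment 2, and the 5 input samples are not analysed here.

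DRIP uses the S9.6 antibody to pull down RNA-DNA hybrids, which form when a nascent transcript pairs with its template strand and leaves the other strand unpaired. Such structures, called R-loops, are known to gather at the starts and ends of active genes, at GC-rich promoters and where the displaced strand is rich in G. TDP1, the tyrosyl-DNA phosphodiesterase whose gene opens the segment, removes topoisomerase 1 remnants from the 3′ ends of broken DNA. A peak is a stretch where the authors' caller found more reads than its background estimate, and its fold enrichment is the ratio between them.

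In the SCAN1 libraries the segment held much less of the peak sequence than in the WT libraries, while the chromosome before TDP1 held a like share in both. It contained 69, 113 and 84 peaks in SCAN1#1 replicate 1, SCAN1#1 replicate 2 and SCAN1#2 replicate 2, against 360 and 327 peaks in WT replicates 1 and 2. In the same order, the peaks covered 37.8, 65.7 and 43.6 kb in SCAN1 libraries, against 192 and 194 kb in WT libraries. All 3 SCAN1 libraries lay below both WT libraries, and the groups did not overlap. The whole lists held 63456, 110745 and 89932 peaks in SCAN1 libraries and 82545 and 89445 in WT libraries, so that the longest list and the shortest were both of SCAN1#1.

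The segment held 0.0915% ± 0.00684 of all peak bases in SCAN1 libraries (SD, n = 3) and 0.369% ± 0.0276 in WT libraries (SD, n = 2), a log2 ratio of -2.01. Set against WT of its own experiment, SCAN1#1 replicate 1 had a log2 ratio of -2.09 for this share, SCAN1#1 replicate 2 one of -1.83 and SCAN1#2 replicate 2 one of -2.05. The last 2 ratios share WT replicate 2. On the rest of chromosome 14 the same ratios were -0.07, -0.07 and 0.02. The lists hold no read counts and no input signal, so the amount of DNA that each library had over the segment was not measured here. Less DNA over the segment, fewer cells with a hybrid and weaker hybrids per cell therefore cannot be told apart.

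**Figure D1:**
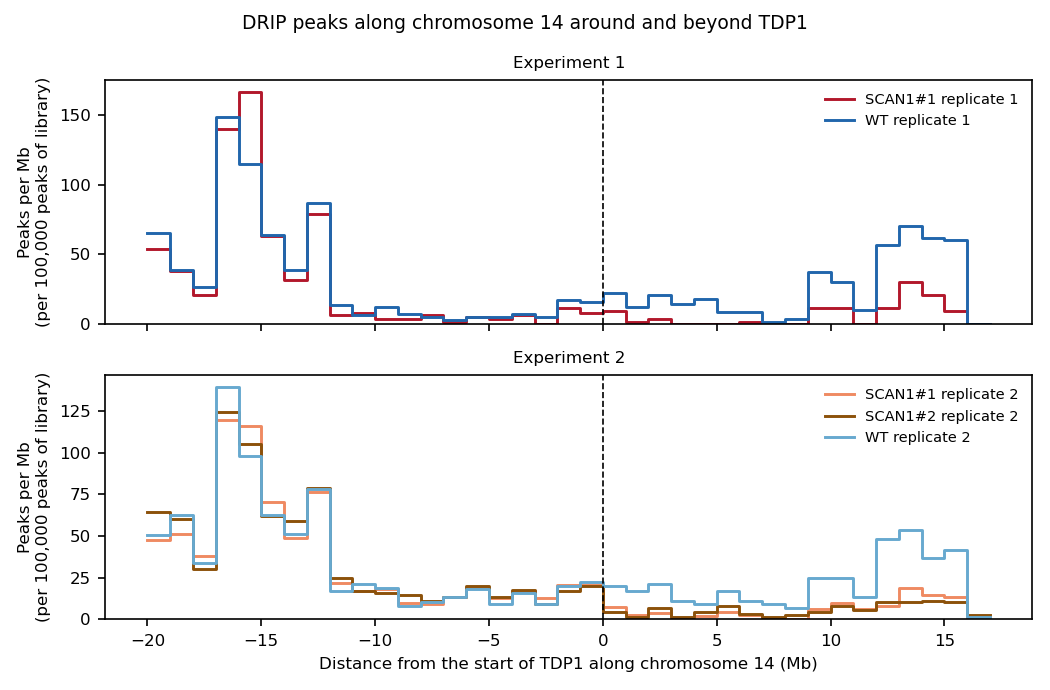
Peaks per Mb, per 100000 peaks of each library, against the distance from the start of TDP1 (dashed line), with a panel for each experiment. Beyond the line, the SCAN1 lines run below WT in 16 of 17 bins, and before it no bin has all SCAN1 libraries below all WT libraries.

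The lower peak share began close to TDP1 and ran along nearly the whole segment. Counted in bins of 1 Mb from the start of TDP1, the share of peaks was lower in every SCAN1 than in every WT library in 16 of 17 bins beyond it and in 0 of 20 bins before it. Over all 1 Mb bins of the lists with a peak, 4.84% met this call. No bin on either side was higher in every SCAN1 library, which 6.09% of all bins were. The exception beyond TDP1 was the last bin, over the immunoglobulin heavy chain locus, with 0, 1 and 2 peaks in SCAN1 libraries and 0 and 1 in WT libraries. Some of the 16 bins held few peaks and rest on the scaling to list length. Between 7 and 8 Mb there were 0, 1 and 1 peaks in SCAN1 libraries, against 1 and 8 in WT libraries. In the 5 Mb before TDP1 the lists held 18, 93 and 69 peaks in SCAN1 libraries and 41 and 68 in WT libraries, which overlap. In the first 5 Mb beyond its start they held 9, 17 and 16 peaks in SCAN1 libraries, against 72 and 70 in WT libraries.

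At the edge itself, TDP1 had peaks in both genotypes. The region at 89956016-89956997, just inside the gene, had a fold enrichment of 4.41 and 4.68 in the SCAN1#1 libraries and no peak in SCAN1#2, against 3.92 and 4.55 in WT libraries. A second one at 89958327-89958687 had 5.73 in SCAN1#1 replicate 1 and no peak in the other SCAN1 libraries, against 3.86 and 4.55 in WT libraries. Another, at 89963260-89963578, had a peak only in SCAN1#1 replicate 2, at 3.96. The nearest regions before the edge, at -69.5, -84.2 and -107 kb from it, lie in EFCAB11, and each had a peak in 1 library, which was SCAN1#1 replicate 2 for the nearest and WT replicate 2 for the others. The first region with peaks in both WT libraries but without any in the SCAN1 libraries lies 310 kb beyond the start, at 90265410-90266045 in PSMC1, the gene of a proteasome ATPase subunit, with folds of 4.27 and 5.31 in the WT libraries. It sits between regions of the same gene at 90256865-90257538 and 90274123-90274674 that had a peak in all 5 libraries.

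The members are divided below by their peaks. A region that both WT libraries but no SCAN1 library had a peak in is called lost, and a region with a peak in all 5 libraries is called kept in all. Of the 546 members, 143 had a peak in both WT libraries. Among these, 62 were lost (43.4%, 95% exact binomial interval 35.1 to 51.9), 36 had a peak in 1 SCAN1 library (25.2%), 25 in 2 (17.5%) and 20 in all 3 (13.99%, interval 8.76 to 20.8). Over the whole series, 42714 regions had a peak in both WT libraries, of which 5.77% had none in SCAN1 libraries and 51.4% had one in all 3. As a share of all merged regions, the lost ones were 1.39%. These counts rest on which libraries must have or lack a peak: without SCAN1#1 replicate 1, SCAN1#1 replicate 2 or SCAN1#2 there were 73, 74 or 76 lost regions, and with WT replicate 2 or 1 as the only WT library 215 or 251. The intervals cover counting error over regions only, and regions of 1 library are not independent.

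**Figure D2:**
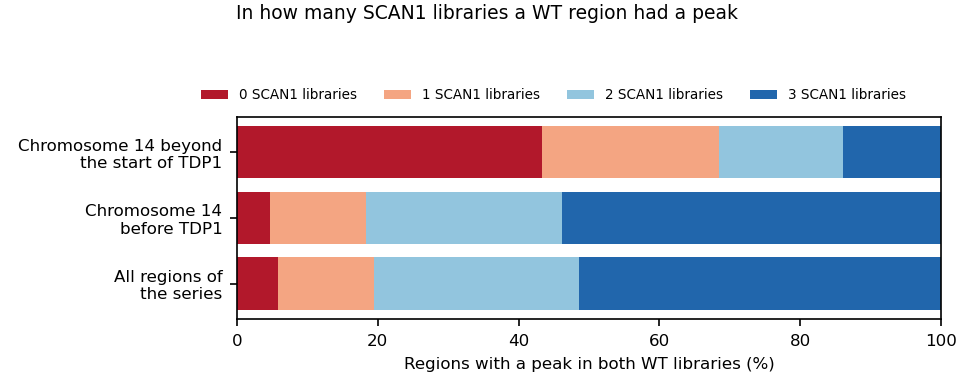
Share of the regions with a peak in both WT libraries (horizontal axis, percent) that had a peak in 0, 1, 2 or 3 SCAN1 libraries, for the segment, for chromosome 14 before TDP1 and for the whole series. The share with none is 43.4% in the segment, 4.63% before TDP1 and 5.77% in the series.

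Other stretches gave lower shares. Chromosome 14 before TDP1 had 1382 regions with a peak in both WT libraries, of which 4.63% were lost and 53.8% kept in all. On the long arm of chromosome 10, in a stretch of 40 Mb that starts at 85 Mb, 40 of 484 were lost (8.26%). On that of chromosome 4, in a stretch of 50 Mb that starts at 140 Mb, 11 of 250 were lost (4.4%). That stretch differs from the series the other way, since 51.5% of its regions had no WT peak, against 34.0% in the series. In 13 bins of 1 Mb in the segment with at least 5 such regions, the lost share had a median of 44.4% and ran between 20% and 80%. In the 1906 other bins of the series with at least 5, the median was 4.17%, the 95th percentile 20% and the highest value 50%.

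Each SCAN1 library missed most of the 143 regions. SCAN1#1 replicate 1 had a peak in 41 (28.7%), SCAN1#1 replicate 2 in 56 (39.2%) and SCAN1#2 replicate 2 in 49 (34.3%), where over the whole series these libraries had one in 61.4%, 86.2% and 78.4%. Neither SCAN1#1 library had a peak in 76 (53.1%, against 9.85% in the series) and SCAN1#2 had none in 94 (65.7%, against 21.6%). The lines did not keep all the same sites: 35 regions had a peak in both lines, 32 only in SCAN1#1, which has 1 library more, and 14 only in SCAN1#2.

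Most of the remaining members had a peak in 1 library. With or without SCAN1 peaks, 373 regions had a peak in only 1 of the WT libraries. Of these, 329 (88.2%) had none in SCAN1 libraries, 181 from WT replicate 1 and 148 from WT replicate 2. In the series this share was 38.9%. A further 30 members (5.49%, against 34.0% of all regions) had no WT peak. Of these, 25 had a peak in 1 SCAN1 library, 5 in 2 and 0 in all 3, where 0.945% of all regions had one in all 3 SCAN1 libraries alone. The strongest of the 5 lies at 106332913-106333565, over the pseudogene GOLGA4P2 inside the immunoglobulin heavy chain locus, with a fold of 6.95 in SCAN1#1 replicate 2 and 7.75 in SCAN1#2. The others lie near SLC24A4, near LINC02304, over LOC124903385 and over MEG8.

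Taken in stretches of 5 Mb, the last of them shorter, the lost share ran between 39.1% and 50%. It was lower next to TDP1: in the first 1 Mb from its start, 1 of 7 regions was lost (14.3%) and 3 were kept in all. In the first 5 Mb 13 of 28 regions were lost (46.4%), between 5 and 10 Mb 9 of 23 (39.1%), between 10 and 15 Mb 29 of 70 (41.4%) and from 15 Mb to the end 11 of 22 (50%). Regions kept in all were found in each stretch, numbering 4, 2, 12 and 2. The stretch between 10 and 15 Mb, with the most peaks, held 46, 64 and 40 peaks in SCAN1 libraries, against 189 and 158 in WT libraries.

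Sites kept in all had higher fold enrichments in WT libraries, and more bases under WT peaks, than lost ones. The median WT fold enrichment, a mean over both WT libraries for each region, was 5.17 for lost regions, 5.63 and 6.88 for those with a peak in 1 and 2 SCAN1 libraries, and 8.28 for those kept in all. The median number of bases under WT peaks, a mean over both WT libraries for each region, was 402, 495, 1062 and 1090 in the same order. In the rest of the series the order was the same at lower values, with median WT folds of 4.78, 5.11, 5.65 and 6.80. The part that the caller's threshold plays in this order was not tested.

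The lost share can also be read by WT strength, as a description in broad classes, the highest of which has no upper bound. With the regions of the series split into quartiles of WT fold, the lowest quartile (2.48 to 4.99) held 41 regions of the segment, of which 65.9% were lost, against 13.5% in the rest. The lost share was 52.4% of 42 regions in the next quartile, against 6.31% in the rest, and 37.5% of 32 in the one after, against 2.43%. Of the 28 regions above a fold of 7.41, 1 was lost (3.57%, against 0.338% in the rest), and 46.4% were kept in all, against 82.4% in the rest.

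**Figure D3:**
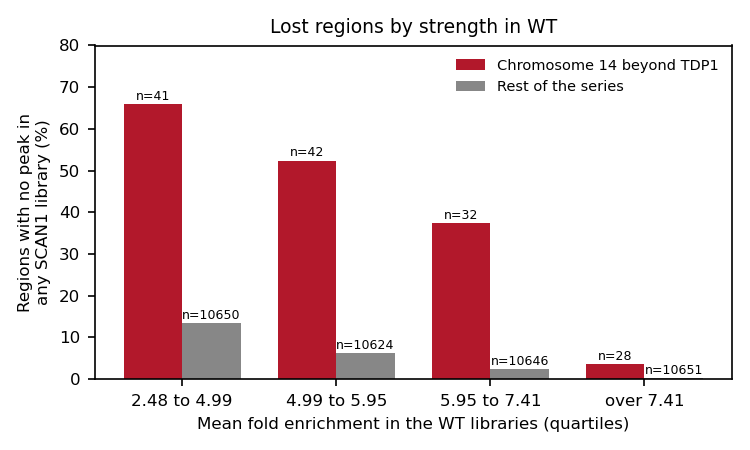
Percent of regions with a peak in both WT libraries that had none in any SCAN1 library (vertical axis), by quartile of the mean WT fold enrichment, for the segment and the rest of the series. Bars for the segment fall from 65.9% in the weakest quartile to 3.57% in the strongest, and n is the number of regions.

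By annotation, the 546 members lay at ends of protein-coding genes (77, within 1 kb of either end), inside such genes (267), over other genes (40) and between genes (162). Of those with a peak in both WT libraries, 10 of 34 at gene ends were lost (29.4%) and 10 were kept in all. Inside genes 32 of 63 were lost (50.8%) and 7 kept in all. Between genes 14 of 33 were lost (42.4%) and 2 kept in all, and over other genes 6 of 13 were lost (46.2%) and 1 kept in all. So gene ends held 10 of the 20 sites kept in all. The lost share at gene ends minus that elsewhere was -18.29 percentage points, but -8.61 without SCAN1#1 replicate 1 and -30.61 without WT replicate 1. In the rest of the series 1.55% of regions at gene ends and 6.79% inside genes were lost. There 79.5% of regions at gene ends, 46.2% inside genes and 43.0% between genes were kept in all. The higher kept share at gene ends is thus not particular to the segment.

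Among the sites kept in all, several lie at gene ends or over promoters. PPP4R3A, the gene of a regulatory subunit of protein phosphatase 4, had a region at 91509138-91510531 with folds of 7.05, 11.2 and 10.8 in SCAN1 libraries, against 12.0 and 15.9 in WT libraries. All SCAN1 values were below both WT values there. VRK1, a nuclear kinase gene, at 96797683-96798379, had 7.49, 11.2 and 6.46 in SCAN1 libraries, against 7.07 and 11.3 in WT libraries, which overlap. A region over YY1, a zinc finger transcription factor gene, and its divergent transcript YY1-DT, at 100237879-100239976, had 6.61, 6.12 and 6.03 in SCAN1 libraries, against 8.16 and 8.34 in WT libraries. HSP90AA1, the gene of the inducible HSP90 chaperone, at 102086431-102087950, had 6.95, 6.48 and 4.31 in SCAN1 libraries, against 10.7 and 9.09 in WT libraries. In both of these genes the groups did not overlap.

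The site kept in all with the highest mean fold in SCAN1 libraries lay outside annotated genes, 301 bases from LOC124903385, at 100692181-100693331. It had folds of 9.70, 16.2 and 13.3 in SCAN1 libraries, against 11.0 and 14.02 in WT libraries, which overlap. The next, at 105021370-105022683 beside CDCA4, a gene linked to cell division, had 10.6, 8.16 and 17.7 in SCAN1 libraries, against 14.4 and 23.9 in WT libraries. The next one, inside AHNAK2, a large scaffold protein gene, at 104952181-104955568, had 7.93, 11.5 and 12.1 in SCAN1 libraries, against 11.6 and 16.7 in WT libraries. TEX22 at 105398685-105401352 had 5.29, 11.2 and 7.75 in SCAN1 libraries, against 10.9 and 11.0 in WT libraries. Those near RCOR1 and VESTAR ranged between 3.97 and 9.90 in SCAN1 libraries and between 8.50 and 12.5 in WT libraries.

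The widest member, 8307 bases at 103699438-103707744, spans the end of KLC1, a kinesin light chain gene, and part of XRCC3, a gene of homologous recombination. Its peaks covered 3566, 3169 and 695 bases in SCAN1 libraries, against 7635 and 5529 in WT libraries. Its folds were 6.61, 5.40 and 3.87 in SCAN1 libraries, against 8.19 and 7.58 in WT libraries. The neighbouring XRCC3 region at 103708026-103711655 was covered over 394, 395 and 576 bases in SCAN1 libraries, against 3630 and 1175 in WT libraries. Both kept a peak in every library but over fewer bases in each SCAN1 library.

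**Figure D4:**
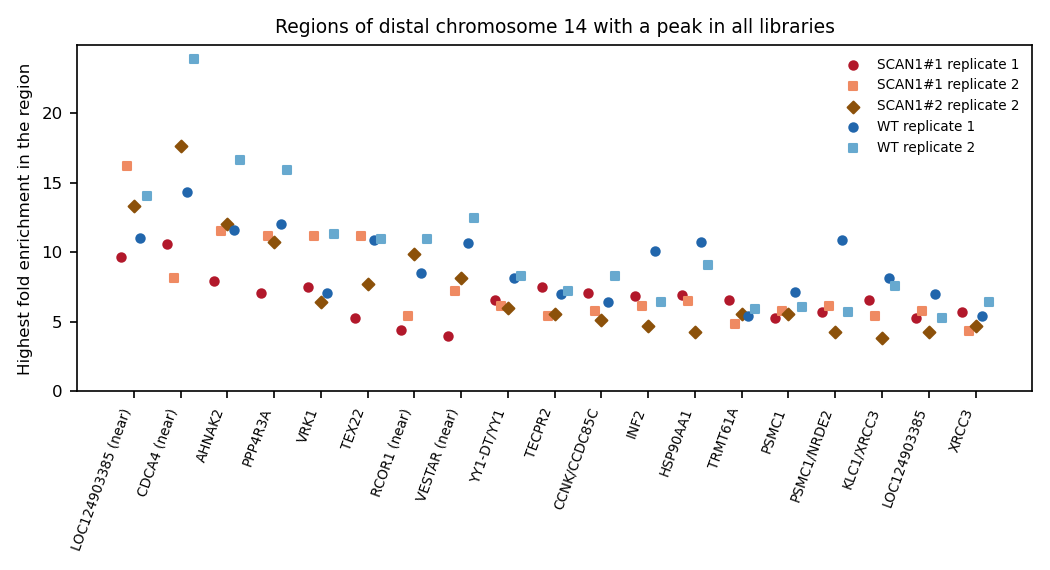
Highest fold enrichment in 19 of the 20 regions kept in all (vertical axis), in each library, ordered by the mean of the SCAN1 libraries. Regions are named by the genes they overlap or by the nearest gene, and the highest SCAN1 and WT values are 17.7 and 23.9, both near CDCA4.

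Over the 20 regions kept in all, fold enrichments were mostly lower and peaks covered fewer bases in SCAN1 libraries. The fold was below that of WT of the same experiment in 14 regions for SCAN1#1 replicate 1, 16 for SCAN1#1 replicate 2 and 19 for SCAN1#2. The median log2 ratios were -0.42, -0.47 and -0.44. The 21924 such regions of the rest of the series had medians of -0.03, 0.17 and 0.10, and the 15288 of them within the same range of WT folds had -0.09, 0.13 and 0.04. The peaks covered 18.5, 21.7 and 15.6 kb of these regions in SCAN1 libraries, against 34.1 and 28.3 kb in WT libraries. That is 54.4%, 76.7% and 55.2% of WT of the same experiment, where the rest of the series had 97.95%, 112% and 93.3%. The median distance between the peak summits of a SCAN1 and a WT library was 62.5 to 183 bases, and 135 bases between the WT libraries. Summits lay within 200 bases in 11 to 14 of the 20 regions for these pairs, and in 11 between the WT libraries.

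The strongest lost sites were of moderate strength and mostly inside genes. LOC105370680, an uncharacterised locus, had a region at 102520957-102521448 with no SCAN1 peak and folds of 6.99 and 7.96 in the WT libraries. The region at 105062237-105062927 in GPR132, a G protein-coupled receptor gene, had no SCAN1 peak and WT folds of 5.83 and 8.72. One at 96521759-96522122 in PAPOLA, the poly(A) polymerase gene, had no SCAN1 peak and WT folds of 7.77 and 6.06. Another at 100894329-100894691, over RTL1 and MEG8 of the imprinted DLK1-DIO3 cluster, had no SCAN1 peak and WT folds of 6.48 and 6.82. In INF2, an actin-nucleating formin gene, a region at 104691436-104692292 was lost (WT folds 8.55 and 4.55), while one in the same gene at 104696193-104700318 was kept in all, with 6.88, 6.12 and 4.74 in SCAN1 libraries, against 10.1 and 6.44 in WT libraries. CCDC85C showed the same mixture: it lost regions at 99529038-99529575 and 99518634-99520895 and kept the one it shares with CCNK at 99504581-99505754, with 7.05, 5.76 and 5.17 in SCAN1 libraries, against 6.41 and 8.34 in WT libraries. The remaining 3 of the 10 strongest lay in CDC42BPB, a kinase gene, and near LOC107984710 and LOC112268127.

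Promoters of both outcomes can be compared in sequence. RefSeq's table holds 189 promoter windows (250 bases before to 50 after a start) of 128 protein-coding genes of the segment, of which 29 windows of 22 genes touched a member region. In 5 windows the region was kept in all (PPP4R3A, YY1, HSP90AA1 and RCOR1), in 6 it had both WT and 1 or 2 SCAN1 peaks (PAPOLA, XRCC3, ZFYVE21 and AHNAK2), and in 7 it was lost (NDUFB1, CPSF2, BTBD7, UNC79, KLC1 and an upstream start of EIF5). In a further 9 the peak was in 1 WT library alone. The median GC content was 74.3% for windows kept in all and 72.7% for lost ones, with 37 and 35 CpG sites, against 66.7% and 24 in the 160 windows of the segment with no peak and 62.3% and 21 over the 22199 protein-coding windows of the table. A run of 4 or more G on either strand (GGGG or CCCC) was in all windows of both outcomes, in 96.8% of the segment's windows and in 93.5% of all. Some windows share a region, such as those of BTBD7 and UNC79, and some touch it over few bases, 15 for RCOR1. So these values describe windows and not the sequence under the peaks.

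A pair of promoters kept in all and a pair that was lost are shown because each printed stretch lies wholly under its region. Each stretch is the part of the window that precedes every start listed there, from RefSeq (GRCh38.p14), 5′ to 3′ on the gene's strand, and capitals mark runs of 4 or more G. The YY1 stretch is chr14:100238894-100239143 (+) and the HSP90AA1 stretch chr14:102087045-102087294 (-), both kept in all. UNC79, a cation channel subunit gene, is at chr14:93333037-93333181 (+), between its start and that of BTBD7, and KLC1 at chr14:103629144-103629210 (+), and both were lost.
YY1: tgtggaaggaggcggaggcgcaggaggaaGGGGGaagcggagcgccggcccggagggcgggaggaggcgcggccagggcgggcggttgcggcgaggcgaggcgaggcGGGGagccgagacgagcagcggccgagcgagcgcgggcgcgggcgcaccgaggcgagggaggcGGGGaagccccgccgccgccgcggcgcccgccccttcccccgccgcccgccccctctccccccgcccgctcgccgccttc
HSP90AA1: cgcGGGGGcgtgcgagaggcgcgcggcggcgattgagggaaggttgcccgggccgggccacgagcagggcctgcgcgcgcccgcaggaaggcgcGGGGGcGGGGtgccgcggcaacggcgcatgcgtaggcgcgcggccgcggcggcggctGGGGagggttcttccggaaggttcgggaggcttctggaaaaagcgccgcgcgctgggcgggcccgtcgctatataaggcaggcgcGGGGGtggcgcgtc
UNC79: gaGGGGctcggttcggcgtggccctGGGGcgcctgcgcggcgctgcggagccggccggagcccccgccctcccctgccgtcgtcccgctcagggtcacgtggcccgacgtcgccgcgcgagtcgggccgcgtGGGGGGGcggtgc
KLC1: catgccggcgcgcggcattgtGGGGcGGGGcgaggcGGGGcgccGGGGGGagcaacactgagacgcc
The kept stretches hold 3 and 5 runs of G with a GC content of 83.2% and 77.6%, and the lost ones 3 and 4 runs with 82.8% and 79.1%. The mean fold of their regions was 6.25 and 5.91 in SCAN1 libraries, against 8.25 and 9.92 in WT libraries, for YY1 and HSP90AA1. The lost regions had mean WT folds of 5.58 for UNC79 and 5.17 for KLC1. The pairs overlap in GC content. The counts of runs are not scaled for length and cannot be compared directly. The stretches of YY1 and HSP90AA1 are 250 bases long, that of UNC79 145 and that of KLC1 67.

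By gene, coverage is the percent of the gene with 1 kb at both ends that lay under peaks. A peak between close neighbours, such as KLC1, XRCC3 and ZFYVE21, or NDUFB1 and CPSF2, counts for each of them. Of 145 protein-coding genes of the segment, 97 had a peak in some library, with 30, 40 and 39 in SCAN1 libraries and 80 and 82 in WT libraries. Coverage was lower in every SCAN1 than in every WT library in 54 of the 97 (55.7%), where 4.71% of all genes with a peak met this call. None was higher in every SCAN1 library, a call that 6.64% of all genes met. The gene nearest to it, PLD4, of the phospholipase D family, had 6.77%, 5.61% and 5.42% in SCAN1 libraries, against 5.77% and 0% in WT libraries. Of 67 genes covered in both WT libraries, 18 had no coverage in any SCAN1 library, against 56 of 12378 such genes in the rest of the series.

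**Figure D5:**
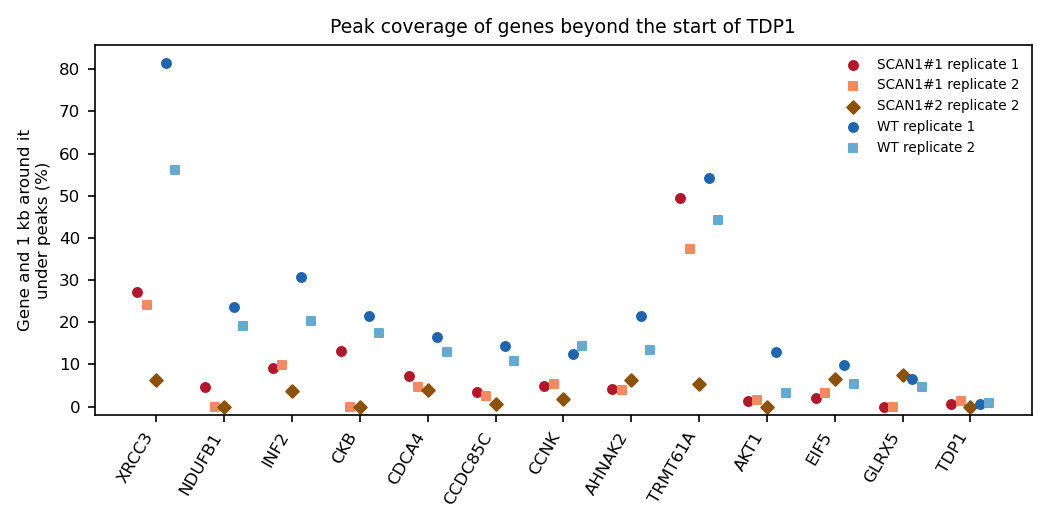
Percent of each gene, with 1 kb at both ends, under peaks (vertical axis) in each library, for 13 genes of the segment. XRCC3 has the widest gap between SCAN1 and WT libraries, and TDP1 is near 0 in all 5.

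TDP1 itself was covered over 0.722%, 1.42% and 0% in SCAN1 libraries, against 0.661% and 0.918% in WT libraries, which overlap, and peaks cannot check a label of a single amino acid change. PSMC1 was at 4.10%, 6.505% and 4.02% in SCAN1 libraries, against 10.7% and 6.85% in WT libraries, without overlap. Of the 7 genes listed for this neighbourhood, all with a peak, 4 were lower in every SCAN1 library: PSMC1, NRDE2, which acts in nuclear RNA metabolism, TTC7B and the kinase gene RPS6KA5. In the segment as a whole 55.7% of genes with a peak were.

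Among genes of DNA repair and genome stability, 8 of the 9 with a peak were lower in every SCAN1 library, and TDP1 was the exception. In the segment as a whole 54 of 97 genes with a peak met this call (55.7%), and 4.71% of all genes with a peak. The list is short and was chosen with earlier results known. XRCC3 was covered over 27.1%, 24.2% and 6.41% in SCAN1 libraries, against 81.5% and 56.0% in WT libraries. Its means were 19.2% ± 11.2 in SCAN1 (SD, n = 3) and 68.8% ± 18.04 in WT libraries (SD, n = 2). CCNK, the gene of cyclin K, which activates the transcriptional kinase CDK12, had 4.87%, 5.43% and 1.86% in SCAN1 libraries, against 12.4% and 14.5% in WT libraries. SIVA1, a pro-apoptotic gene, had 7.24%, 0% and 0% in SCAN1 libraries, against 13.0% and 17.4% in WT libraries. MTA1, of the NuRD chromatin remodelling complex, had at most 0.641% in SCAN1 libraries, against 6.02% and 3.61% in WT libraries, and TEDC1 had none, against 5.66% and 6.82%.

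Chaperone and proteolysis genes gave 5 of 6 lower in every SCAN1 library, where 55.7% of the segment's genes with a peak were. HSP90AA1 was covered over 0.616%, 2.38% and 2.88% in SCAN1 libraries, against 5.70% and 5.07% in WT libraries. BAG5, the gene of an HSP70 co-chaperone, was not covered in SCAN1 libraries, against 3.07% and 7.06% in WT libraries. In translation and RNA processing, 3 of 9 met the call: CPSF2, PAPOLA and RPS6KA5. CPSF2 belongs to the complex that cleaves pre-mRNA before polyadenylation. RPS6KA5 is a kinase gene that is also counted under kinases and signalling. TRMT61A, a tRNA methyltransferase gene, had 49.4% and 37.4% in the SCAN1#1 libraries and 5.40% in SCAN1#2, against 54.3% and 44.3% in WT libraries. SCAN1#1 replicate 1 lay between the WT values, and the other SCAN1 libraries lay below them. Set against WT of the same experiment, TRMT61A was lower in all 3 SCAN1 libraries, which makes 4 of 9 in this list.

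Transcription and chromatin genes gave 5 of 6, kinases and signalling 9 of 11, and cytoskeleton and trafficking 8 of 14. Over all lists, 41 of 65 protein-coding genes with a peak met the call. In the segment as a whole 54 of 97 did (55.7%), and 4.71% of all genes with a peak. Some genes are in several lists, and no difference between the lists was tested. YY1 had 2.44%, 1.84% and 1.25% in SCAN1 libraries, against 6.26% and 5.08% in WT libraries. AKT1, the gene of a central growth factor kinase, had 1.26%, 1.62% and 0% in SCAN1 libraries, against 13.1% and 3.32% in WT libraries. INF2 had 9.10%, 9.85% and 3.65% in SCAN1 libraries, against 30.9% and 20.4% in WT libraries. The dynein heavy chain gene DYNC1H1 had 0.429%, 0.598% and 0.474% in SCAN1 libraries, against 2.51% and 2.85% in WT libraries. These 4 did not overlap between the genotypes.

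Metabolic and mitochondrial genes gave 6 of 8, where 55.7% of the segment's genes with a peak met the call. NDUFB1, of respiratory complex I, had 4.67%, 0% and 0% in SCAN1 libraries, against 23.7% and 19.0% in WT libraries. CKB, the brain-type creatine kinase gene, had 13.1%, 0% and 0% in SCAN1 libraries, against 21.5% and 17.4% in WT libraries. ATP5MJ, of the ATP synthase, had no coverage in SCAN1 libraries, against 4.52% and 4.36% in WT libraries. In these, any SCAN1 coverage came from SCAN1#1 replicate 1. With lists of equal length, the SCAN1 minus WT difference was -3.557 percentage points for CKB (-15.08 as deposited) and -9.494 for NDUFB1 (-19.8 as deposited). The other genes with large gaps in all comparisons were CDCA4, with 7.35%, 4.63% and 4.02% in SCAN1 libraries, against 16.6% and 12.9% in WT libraries, CCDC85C, with 3.40%, 2.50% and 0.581%, against 14.3% and 10.8%, and AHNAK2, with 4.28%, 3.87% and 6.28%, against 21.4% and 13.4%.

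The serpin, TCL1 and immunoglobulin heavy chain groups had few peaks in any library, unlike the imprinted DLK1-DIO3 cluster. The site kept in all with the highest mean SCAN1 fold, near LOC124903385, lies between BEGAIN and DLK1 of that cluster. Of 8 genes of the imprinted DLK1-DIO3 cluster, 4 had a peak, and MEG3, a maternally expressed long noncoding RNA gene, and RTL1 had none in SCAN1 libraries, against 0.634% and 0.355% for MEG3 and 1.12% and 1.398% for RTL1 in WT libraries. The other two overlapped: BEGAIN had 0%, 3.11% and 1.30% in SCAN1 libraries, against 1.397% and 2.16% in WT libraries, and MEG8 had 0%, 0.259% and 0.284%, against 0.260% and 0.326%. Of 11 serpin genes 2 had a peak, of 3 TCL1 family genes none, and of 177 annotated members of the immunoglobulin heavy chain locus 2. RefSeq lists 68 miRNA hairpins in the segment, many of them in the imprinted cluster. A member region touched 2 of them: MIR543, in 1 WT library, and MIR4710, in 1 SCAN1 library and both WT libraries. The serpin, TCL1 and immunoglobulin groups and the hairpins offer little to compare.

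The experiment was not used to choose the segment and could be tested. The splits took no account of genotype, of which the experiments held unequal mixtures, with SCAN1#2 in experiment 2 only. The share of the segment's peak bases at gene ends was 14.1% ± 2.996 in experiment 2 (SD, n = 3) and 20.6% ± 6.40 in experiment 1 (SD, n = 2), with an exact two-sided permutation p of 0.3 over 10 splits (adjusted p = 0.5 over the 2 values tested). The median fold of its peaks was 4.98 ± 0.313 in experiment 2 (n = 3) and 4.78 ± 0.102 in experiment 1 (n = 2), with an exact two-sided permutation p of 0.5 (adjusted p = 0.5). The smallest p this design allows is 0.1, so neither could have passed a threshold of 0.05. The segment's median folds were 4.85, 4.68 and 4.95 in SCAN1 libraries and 4.70 and 5.31 in WT libraries, and those of the rest of the lists 4.85, 5.76 and 5.94 in SCAN1 libraries and 4.84 and 5.68 in WT libraries.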

How the data were processed

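DRIP peak lists of 5 U2OS libraries were read. Per the labels' protocols, nuclei were not crosslinked, nucleic acids were sonicated, and RNase H was applied to the S9.6 precipitates ahead of second strand synthesis. The submitters' processing notes name BWA 0.7.17-r1188, MACS3 3.0.0a6, SAMtools 1.9, deepTools 3.5.1 and FastQC 0.11.5, and the build hg38. The control and options used to call peaks were not stated in these sources. Each deposited list was called on 1 library and gives, per its layout, a fold enrichment (ratio to the caller's background), the -log10 p and -log10 q, and a score that is 10 times the -log10 q, rounded down. These are the authors' values, with a lowest -log10 q just above 2. Read depth is unknown, so no error of reads is given.

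Peaks that overlap or touch were merged with Python 3.11.15 and pandas 2.3.3, and a region was counted in a library with any overlap (1 base). The region's fold is the highest of its peaks. Genes came from RefSeq (GRCh38.p14). Replicate numbers are the experiments in the labels, so ratios were also taken within experiments, and SCAN1#2 has replicate 2 only. The scripts were tested on simulated peak lists. The members and gene lists were chosen with earlier results of these data known, and the lists, the 10 strongest lost and kept regions, the edge regions and the genes with the largest gaps in all comparisons are those named. Regions lost and kept within 1 gene, the printed promoters and miRNAs were picked after their values were seen. 1 gene that the rule names is not reported here.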

Additional observations from a re-analysis of the deposited data

Results flagged for a closer look

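Of the genes that the naming rule covers, 3 moved one way in both SCAN1#1 libraries and the other way in SCAN1#2, each set against WT of the same experiment. The difference between the lines was not tested, and SCAN1#2 is 1 library. For GLRX5, of mitochondrial iron-sulfur cluster assembly, coverage differed from WT by 2.79 percentage points in SCAN1#2 and by -6.61 and -4.77 in SCAN1#1, a gap of 8.49 between the line values. For EIF5, a translation initiation factor gene, it differed by 1.16 points in SCAN1#2 and by -7.69 and -2.21 in SCAN1#1, a gap of 6.1. For TDP1 it differed by -0.918 points in SCAN1#2 and by 0.061 and 0.499 in SCAN1#1, a gap of -1.2.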

How the results depend on the processing

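Of 145 values recomputed under alternatives, 104 were labelled the same, 40 moved and 1 changed sign. The same meant within the spread between libraries or the binomial interval, or within a set factor for counts. For the experiment values it meant only the same sign, so their size may differ. The ratio of WT strength, kept in all over lost, moved in 8 of 8 alternatives and kept its sign. In each alternative run, the segment's share of peak bases was lower in SCAN1 than in WT libraries (log2 ratio -2.01 as reported), lost regions were weaker in WT than those kept in all, and gene ends had the lower lost share. With lists of equal length (63456 peaks), the ratio was -2.163, 39 regions were lost in place of 62, and the log2 ratio of median WT strength, kept in all over lost, was 0.9226 in place of 0.68. With peaks of -log10 q of at least 5 these values were -2.177, 41 and 0.589. The median fold in experiment 2 minus experiment 1 was -0.08754 with this threshold and 1.224 with lists of equal length (0.20 as reported). For 1.224 the exact two-sided permutation p was 0.1, the smallest this design allows, and the cause was not tested. Strength taken as -log10 q gave 1.249. Where SCAN1 peaks had to cover at least 50% of the WT peak bases to count, 94 regions (65.73%) were lost and 4.895% kept in all. Leaving out 1 library in turn, by construction with fewer libraries to meet, gave 73 lost regions without SCAN1#1 replicate 1 to 251 without WT replicate 2 (50.69% to 70.7% of regions with WT peaks), and 6.197% to 23.61% kept in all. These repeats gave 0.5607 to 0.8402 for strength, -30.61 to -8.61 percentage points for the lost share at gene ends minus elsewhere (-18.29 as reported), -2.088 to -1.935 for the share, -0.4784 to -0.4161 for the fold at shared regions and 55 to 72 genes lower in place of 54. That count was 40 with lists of equal length and 36 with the stricter threshold. The replicate block gave -1.99 for the share, -0.44 for the fold at shared regions and 59 genes, with TRMT61A added among the listed genes. Of all genes with a peak, 13.9% were lower in all comparisons within experiments. Of 64 values of named genes, 52 were labelled the same and 12 moved, none in sign. NDUFB1 (-19.8 points) came to -9.494 with equal lists and -7.041 with the stricter threshold, CKB (-15.08) to -3.557 with equal lists, and AHNAK2 (-12.6) to -7.837 with the stricter threshold.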
